A study of Homo sapiens with 9 samples.

Results

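The 8 genes described here code for adhesion receptors of the cell surface: VCAM1, ICAM1, ALCAM, MCAM, CD44, BCAM, F11R and CD9. They were taken by name from a table of 58884 genes, in which 7 carry their symbol and MCAM was found by its Ensembl identifier. Their messenger RNA was measured by RNA-seq in the breast cancer line MDA-MB-231 (Par, for parental) and in sub-populations of it that form metastases in the lung (LM2) or the brain (BrM2), which the study used to ask what separates metastatic cells from the cells they came from. Each line had 3 replicates, harvested at different passages, and p-values therefore measure the spread between cultures of the same line. All cells were grown as monolayers in DMEM with serum and antibiotics for 3 days, with no treatment and no other cell type named. All 3 lines come from the same tumor line, LM2 and BrM2 were each selected in vivo for growth in an organ, and a difference between them is a difference between these populations.

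VCAM1, ICAM1, ALCAM, MCAM, BCAM and F11R belong to the immunoglobulin superfamily, whose extracellular immunoglobulin domains bind integrins, laminins or a partner of their own kind on the next cell. VCAM1 and ICAM1 are best known on inflamed endothelium, where inflammatory cytokines raise them through NF-kappa-B and where leukocytes hold on to them through integrins. Tumor cells can carry the same receptors, and with them CD44, the hyaluronan receptor, and CD9, a tetraspanin that arranges adhesion receptors within the membrane.

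The libraries held between 14371858 and 24511786 counts on genes, and the smallest was the first BrM2 replicate. After a filter on low counts, 13055 genes were tested with edgeR's quasi-likelihood test and p-values adjusted over all of them, and all 8 receptors passed that filter, VCAM1 through its counts in Par and LM2. Levels are normalized CPM, counts scaled to a common library size, given as mean ± SD with n = 3. The first replicate of each line stood apart from the others, with 9587 genes (73.4%) differing at an adjusted p under 0.05, and equal replicate numbers deviated from the line means together. The model without a term for the replicate number is the main one, and values from the model with the number as a block are given for the receptors where they change a call.

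The labelled cell type, mammary epithelial cell, was checked against marker genes. KRT8 and KRT18, keratins of simple epithelia, had 853 and 432 CPM in Par, 517 and 428 in LM2 and 509 and 410 in BrM2. EPCAM had 4.82 to 7.17 CPM, and CDH1 (E-cadherin) had 1.20 CPM in Par, 0.345 in LM2 and 0.431 in BrM2, while the mesenchymal filament gene VIM had 725, 1537 and 1502 CPM in the same order. KRT7 fell from 488 CPM in Par to 174 in LM2 (log2 fold change -1.49, edgeR adjusted p = 0.0257) and 60.9 in BrM2 (-3.002, adjusted p = 0.000745), and KRT19 had 206, 45.5 and 191 CPM and fell in LM2 (-2.18, adjusted p = 0.0173). Among the mesenchymal markers VIM rose in both metastatic lines (adjusted p = 0.0196 and 0.0163) and FN1 (fibronectin) fell in BrM2 (886 to 290 CPM, -1.61, adjusted p = 0.000413). The mesenchymal markers ZEB1 (73.8, 92.3 and 60.5 CPM in Par, LM2 and BrM2) and SNAI2 (32.7, 49.1 and 26.4) were not called without the block. CDH2, the cadherin among the mesenchymal markers, had 0.504, 0.406 and 0.297 CPM. Keratins were thus present in all 3 lines at levels that differed between them, and both cadherins, epithelial and mesenchymal, were near absent. Of the endothelial markers, CDH5 and CLDN5 stayed at or under 0.116 CPM on average in every line, while PECAM1 had 2.28 to 5.17 CPM and KDR 4.94 to 7.98. Of the leukocyte markers, PTPRC had at most 0.136 CPM, CD14 had 1.92 to 3.66, and CSF1R fell from 8.46 CPM in Par to 1.25 in BrM2 (-2.76, adjusted p = 0.00695). The part of these marker differences in the results below was not tested. The summed levels of the 6 epithelial markers ranged from 1456 to 2714 CPM in Par, 731 to 1903 in LM2 and 794 to 1736 in BrM2, those of the 5 mesenchymal markers from 1571 to 1843, 2635 to 3065 and 1617 to 2168, those of the 6 endothelial markers from 6.93 to 13.4, 7.14 to 9.27 and 10.6 to 12.4, and those of the 5 leukocyte markers from 7.98 to 17.1, 4.08 to 10.3 and 2.25 to 4.65. In bulk RNA, fewer cells expressing a gene and less RNA per cell cannot be told apart.

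The genes of VCAM1 and ICAM1 are shown with the bases before their start sites, since both are known as cytokine-induced receptors and their levels in the lines are set side by side below. VCAM1 lies on chromosome 1 (100719742 to 100739045, plus strand, GRCh38.p14) and ICAM1 on chromosome 19 (10271120 to 10286615, plus strand). The others lie on chromosomes 3 (ALCAM, 105366909 to 105576900), 11 (MCAM, 119308529 to 119317130, and CD44, 35139171 to 35232402), 19 (BCAM, 44809059 to 44821421), 1 (F11R, 160995211 to 161021152) and 12 (CD9, 6199946 to 6238266). The 250 bases before the RefSeq start site are at chr1:100719492-100719741 for VCAM1 and at chr19:10270870-10271119 for ICAM1. Capitals mark matches to a kappa-B-like word (GGNNNTTCC, or GGAANNNCC on the other strand) and to a TATA-like word (TATAAA, or TTTATA on the other strand).
VCAM1: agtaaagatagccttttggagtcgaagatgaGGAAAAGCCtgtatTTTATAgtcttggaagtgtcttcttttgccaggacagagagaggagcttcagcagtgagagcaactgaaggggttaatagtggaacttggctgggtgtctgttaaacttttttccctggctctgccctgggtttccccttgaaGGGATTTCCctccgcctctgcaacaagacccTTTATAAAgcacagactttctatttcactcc
ICAM1: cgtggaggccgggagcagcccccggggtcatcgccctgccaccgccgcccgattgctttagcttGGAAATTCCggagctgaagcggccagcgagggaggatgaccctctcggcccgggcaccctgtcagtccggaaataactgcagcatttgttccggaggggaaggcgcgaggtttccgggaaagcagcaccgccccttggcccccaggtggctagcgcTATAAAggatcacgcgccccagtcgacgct

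In the VCAM1 window the kappa-B-like matches began at positions -219 and -62 from the start site and TATA-like matches at -205, -31 and -29, the last 2 overlapping. In the ICAM1 window a match to the kappa-B-like word in both of its orientations began at -186 and a TATA-like match at -30. In RefSeq windows of 300 bases (250 before the start site and 50 after it), a kappa-B-like word was found in 4 of the 7 receptors with an entry (VCAM1, ICAM1, MCAM and CD9) and in 20.1% of all 35116 windows, and a TATA-like word in 2 of 7 (VCAM1 and ICAM1) and in 11.5% of windows. The 7 receptors have 11 windows, since BCAM and CD9 have several start sites. A receptor was counted if any of its windows held a match, while the shares are of single windows, so the 2 figures are in unlike units. A match to an AP-1-like word (TGANTCA) was found in 0 of 7 and in 7.71% of windows, and a GC box (GGGCGG, or CCGCCC) in 6 of 7, VCAM1 being without it, and in 45% of windows. These matches describe the letters of the windows and say nothing of which factors were bound in the 3 lines.

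VCAM1 was the only receptor of the 8 whose libraries separated all 3 lines. It binds the integrin alpha4beta1 of leukocytes. Its counts were 62, 61 and 99 in the Par replicates, 189, 243 and 185 in LM2, and 2, 0 and 1 in BrM2. In CPM these were 3.26, 2.95 and 3.89 in Par, 9.39, 9.91 and 7.09 in LM2, and 0.148, 0 and 0.0479 in BrM2. No library of a line overlapped with a library of another, LM2 being highest and BrM2 at or under 3 counts throughout. Of all tested genes, 25.2% did not overlap in LM2 against Par, 31.3% in BrM2 against Par and 23.1% in BrM2 against LM2. The share of genes separating all 3 lines was not counted.

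In LM2, VCAM1 rose to 8.80 ± 1.5 CPM from 3.37 ± 0.478 in Par, a log2 fold change of 1.38 (SE 0.35, edgeR adjusted p = 0.0451; 8.69% of all tested genes were called in this comparison). With the replicate block the value was 1.37 (adjusted p = 0.00174). The call without the block was narrow. The adjusted p was 0.133, 0.198 and 0.109 without Par replicates 1, 2 and 3 in turn, 0.0596, 0.173 and 0.0789 without LM2 replicates 1, 2 and 3, and 0.0882 without BrM2 replicate 3. The fold change lay between 1.29 and 1.52 in the 9 fits that each left out 1 library, and in the model with the block the call held in all 3 fits that left out a replicate number.

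In BrM2, VCAM1 fell to 0.0652 ± 0.0753 CPM. The 3 BrM2 libraries together held 3 counts against 222 in Par and 617 in LM2. Scaled to library size, the summed level was 64.8 times as high in Par as in BrM2 (95% interval of counting error 21.9 to 317) and 166 times as high in LM2 (56.5 to 807). The difference passed the threshold against Par (edgeR adjusted p = 0.000289; 13.3% of all genes were called) and against LM2 (adjusted p = 0.000147; 8.1% called), and it did so in all 20 alternatives of the processing in both comparisons. At 3 counts per library as a floor, a level of 0.132 to 0.221 CPM would not have been told from 0 in BrM2.

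**Figure D1:**
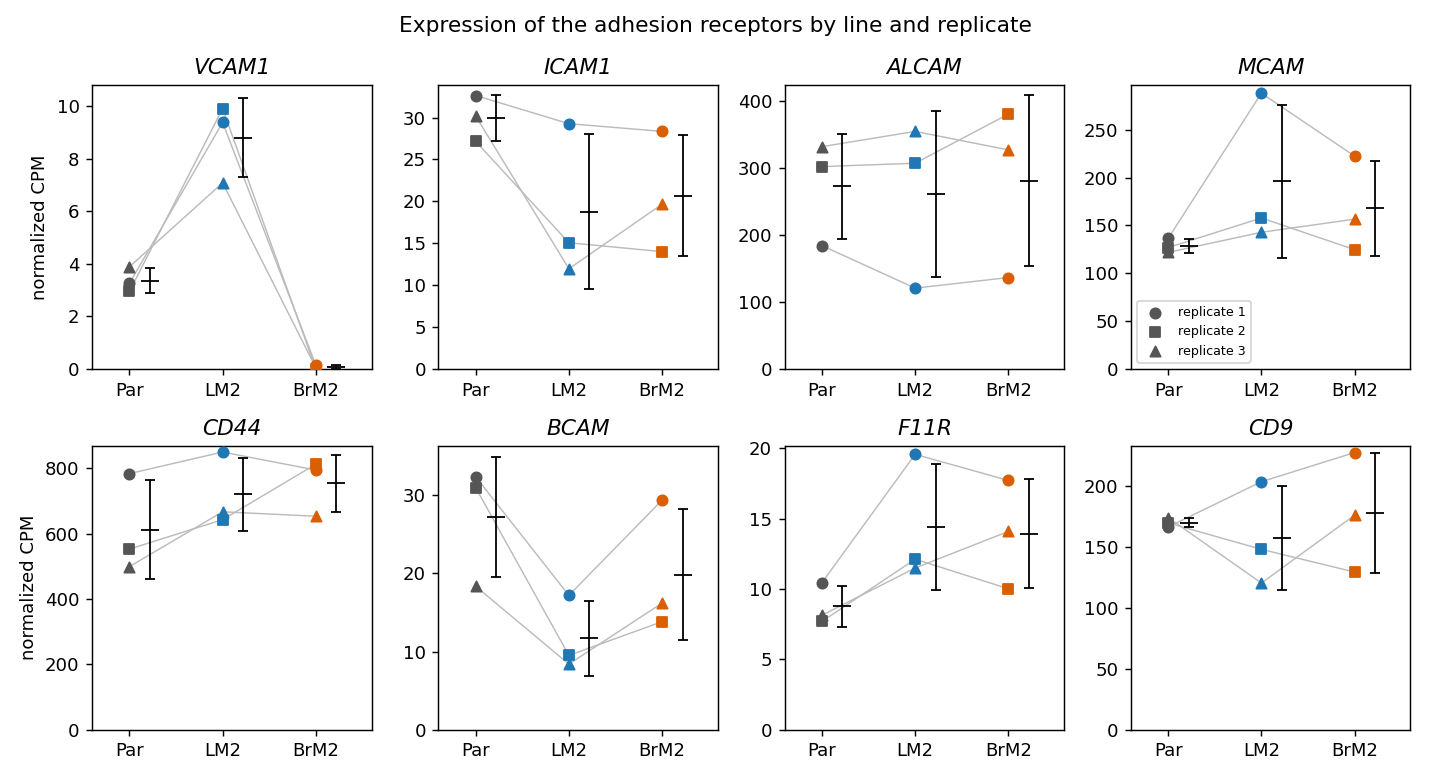
Normalized CPM of each receptor (linear vertical axes from 0, scaled for each gene) in the 3 replicates of Par, LM2 and BrM2, with markers for the replicate number, gray lines joining equal numbers, and black bars for mean ± SD. VCAM1 forms 3 separate groups, from 0.0652 CPM in BrM2 to 8.80 in LM2. The first replicate is lowest in every line for ALCAM, and highest in every line for ICAM1, MCAM, BCAM and F11R.

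The genes with the most similar profile to VCAM1 over the 9 libraries, by the root-mean-square difference of centered log2 CPM, were NLRP2, an inflammasome-family gene (0.357), the noncoding RNA gene LINC01234 (0.398) and HCLS1, a cytoskeletal adapter of hematopoietic cells (0.568), against a median of 2.59 over all genes. LINC01234 had 4.80 ± 0.991 CPM in Par, 17.8 ± 1.20 in LM2 and 0.214 ± 0.140 in BrM2. NLRP2 had 11.4 ± 2.55, 28.8 ± 8.40 and 0.658 ± 0.472 CPM. HCLS1 had 4.80 ± 0.446, 8.09 ± 0.961 and 0.272 ± 0.158 CPM. All 3 shared the order of VCAM1, highest in LM2 and near absent in BrM2, which follows from their choice by profile.

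ICAM1, the ligand of the leukocyte integrins LFA-1 and Mac-1, was not called in any comparison of the 9 libraries without the block. Its levels were 32.6, 27.1 and 30.2 CPM in the Par replicates, 29.3, 15.1 and 11.95 in LM2, and 28.3, 13.99 and 19.6 in BrM2. The first LM2 and the first BrM2 replicate lay within the range of Par and the other 4 metastatic libraries below it. The means were 29.98 ± 2.74 CPM in Par, 18.8 ± 9.23 in LM2 and 20.7 ± 7.23 in BrM2, with log2 fold changes against Par of -0.68 (SE 0.37, edgeR adjusted p = 0.370) and -0.54 (SE 0.37, adjusted p = 0.444) that did not pass. With the replicate block ICAM1 was lower in LM2 (-0.77, adjusted p = 0.0149) and in BrM2 (-0.60, adjusted p = 0.0366), and its level was below that of Par in 3 of 3 replicate numbers for both lines. These calls held in 2 of 3 and 1 of 3 fits with the block that left out a replicate number (adjusted p up to 0.215 and 0.144). Without replicate 1 of all lines, both differences also passed without the block (-1.08, adjusted p = 0.00573; -0.75, adjusted p = 0.0196). BrM2 against LM2 gave 0.14 (95% interval -0.70 to 0.97, adjusted p = 0.893).

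The genes nearest to ICAM1 in profile were NATD1 (root-mean-square difference 0.136), MARCKSL1 (0.140) and CSTB, a cysteine protease inhibitor (0.144), against a median of 0.673 over all genes. MARCKSL1, an actin-binding protein, had 140 ± 15.2 CPM in Par, 76.9 ± 32.9 in LM2 and 98.3 ± 34.1 in BrM2. Differences below the median follow from the choice of these genes by profile. Like ICAM1, each of them was highest in the first replicate of LM2 and of BrM2. The part of the replicate shift in their likeness was not tested.

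BCAM, a receptor for laminins that contain the alpha5 chain, was lowest in LM2. The replicates had 32.4, 31.0 and 18.3 CPM in Par, 17.2, 9.51 and 8.39 in LM2, and 29.4, 13.8 and 16.2 in BrM2. The LM2 libraries lay below those of Par without overlap. The mean was 27.2 ± 7.72 CPM in Par and 11.7 ± 4.79 in LM2, a log2 fold change of -1.22 (SE 0.40, edgeR adjusted p = 0.106), and with the block BCAM passed at -1.27 (adjusted p = 0.000714). The call with the block held in all 3 fits that left out a replicate number. Without the block BCAM passed in DESeq2 (-1.18, adjusted p = 0.0455), and in 1 of the 9 fits that left out 1 library, that without the first LM2 replicate (-1.60, adjusted p = 0.0416), the others giving an adjusted p of up to 0.315.

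BrM2, at 19.8 ± 8.38 CPM, held an intermediate level of BCAM. Against LM2 the log2 fold change was 0.76 (adjusted p = 0.327), which passed with the block (0.76, adjusted p = 0.0122), with BrM2 above LM2 in 3 of 3 replicate numbers, though the call held in 1 of 3 fits with the block that left out a replicate number (adjusted p up to 0.112). Against Par it was -0.46 (95% interval -1.35 to 0.43, adjusted p = 0.557; with the block, adjusted p = 0.0602).

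MCAM (CD146), which binds laminin alpha4 and is carried by endothelium and melanoma cells, had 137, 127 and 122 CPM in Par, 288, 158 and 143 in LM2, and 223, 125 and 157 in BrM2. The LM2 libraries lay above those of Par without overlap, and the first LM2 replicate stood well above the rest. The log2 fold change of LM2 against Par was 0.61 (SE 0.31, edgeR adjusted p = 0.324), and with the block it passed at 0.54 (adjusted p = 0.0292). Without LM2 replicate 1 the value was 0.23 (adjusted p = 0.564), and with the block and without replicate 1 of all lines it was 0.28 (adjusted p = 0.195). BrM2 against Par gave 0.39 (95% interval -0.31 to 1.08, adjusted p = 0.522), and BrM2 against LM2 -0.23 (adjusted p = 0.770). Exons of MCAM overlap those of CBL on the opposite strand over 509 bases, CBL had a mean count of 3183, and the sources used here do not name the strand counted.

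F11R (JAM-A), a receptor of epithelial tight junctions that pairs with its like on the neighboring cell, was low in all 3 lines. Its replicates had 10.5, 7.69 and 8.13 CPM in Par, 19.6, 12.1 and 11.5 in LM2, and 17.7, 10.0 and 14.1 in BrM2. LM2 did not overlap with Par, and the lowest BrM2 library lay just under the highest Par library. Without the block neither difference passed (LM2 0.72, SE 0.30, edgeR adjusted p = 0.220; BrM2 0.67, SE 0.30, adjusted p = 0.208), and with the block both did (0.69, adjusted p = 0.00740; 0.65, adjusted p = 0.00816). With the block and a replicate number left out, the calls held in 2 of 3 and 1 of 3 fits (adjusted p up to 0.0783 and 0.0785). F11R was above Par in 3 of 3 replicate numbers in either line. Of its 50-base stretches, 35.9% occur in other genes, 34.7% in an overlapping gene model on the same strand that had a mean count of 0.778.

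**Figure D2:**
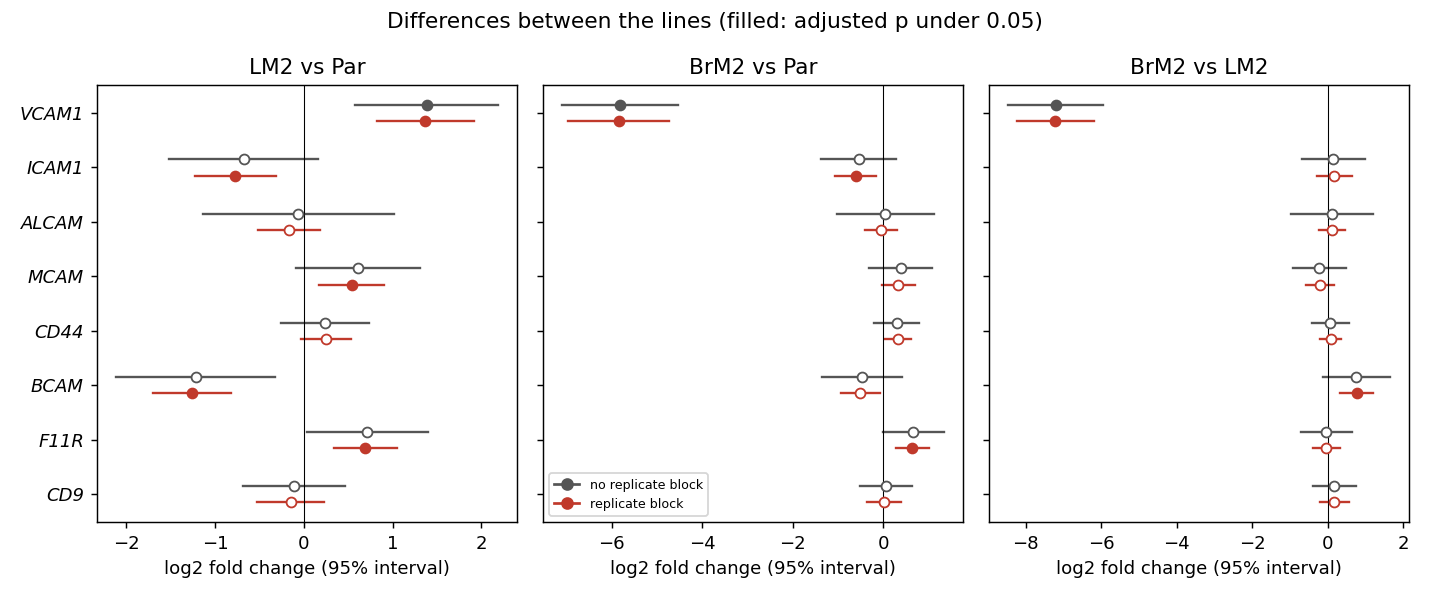
Log2 fold changes of the 8 receptors in the 3 comparisons with 95% intervals (horizontal axes differ between panels), without (gray) and with (red) the replicate block. Filled points have an adjusted p under 0.05, which holds for VCAM1 in every panel, and for ICAM1, MCAM, BCAM and F11R in LM2 against Par, ICAM1 and F11R in BrM2 against Par, and BCAM in BrM2 against LM2 with the block only.

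ALCAM (CD166), which binds its own kind and CD6 of T cells, had 184, 302 and 332 CPM in Par, 121, 307 and 355 in LM2, and 136, 381 and 327 in BrM2. The lines overlapped, and the first replicate was lowest in every line. Replicate 1 was 1.19 log2 units below the others over the 3 lines (-1.19, adjusted p = 1.30e-05). Between lines the log2 fold changes were -0.06 for LM2 (95% interval -1.14 to 1.01) and 0.05 for BrM2 (-1.03 to 1.12), which the block narrowed to -0.17 (-0.51 to 0.18) and -0.05 (-0.39 to 0.30).

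CD44 was the most abundant receptor. Its levels were 783, 552 and 499 CPM in Par, 849, 642 and 667 in LM2, and 794, 812 and 653 in BrM2, and the 3 lines overlapped. Relative to Par it changed by 0.23 log2 units in LM2 (95% interval -0.26 to 0.73, edgeR adjusted p = 0.667) and 0.30 in BrM2 (-0.20 to 0.80, adjusted p = 0.478), with the metastatic line above Par in 3 of 3 replicate numbers for both. With the block the values were 0.25 (-0.03 to 0.53, adjusted p = 0.156) and 0.32 (0.04 to 0.61, adjusted p = 0.0627), and neither passed. Without replicate 1 of all lines the difference of BrM2 passed, at 0.49 both with the block (adjusted p = 0.0181) and without it (adjusted p = 0.0139). Its exons overlap those of CD44-AS1 on the opposite strand over 84 bases, a gene with a mean count of 10.3.

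CD9 had 166, 170 and 174 CPM in the Par replicates, the closest agreement of any receptor in a line (coefficient of variation 2.24%). It had 203, 148 and 120 CPM in LM2 and 227, 129 and 176 in BrM2, ranges that included Par. The log2 fold changes against Par were -0.11 in LM2 (95% interval -0.69 to 0.47) and 0.06 in BrM2 (-0.52 to 0.64), and -0.15 (-0.53 to 0.23) and 0.02 (-0.36 to 0.40) with the block. Differences within these intervals could not be resolved for CD9 with 3 replicates.

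Counted together, 1 of the 8 receptors passed the threshold in each comparison, and it was VCAM1 each time. In LM2 against Par it was 1 higher and 0 lower, where 8.69% of all tested genes were called (4.17% higher and 4.52% lower). In BrM2 against Par it was 0 higher and 1 lower, with 13.3% of genes called (6.25% and 7.02%), and likewise in BrM2 against LM2, with 8.1% (4.11% and 3.99%). With the block, 5 passed in LM2 against Par (3 higher and 2 lower) with 34.5% of all genes called (15.5% higher and 19.1% lower), 3 in BrM2 against Par (1 higher and 2 lower) with 42.7% (19.5% and 23.2%), and 2 in BrM2 against LM2 (1 higher and 1 lower) with 37.5% (17.8% and 19.7%). Libraries did not overlap for 4, 1 and 1 receptors in these comparisons, against 25.2%, 31.3% and 23.1% of all genes. The median log2 fold change of the 8 was 0.09, 0.05 and 0.09, against 0.01, -0.02 and -0.03 over all genes. The first 2 comparisons share the Par libraries.

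The shift of the first replicate moved with the base composition of the transcripts. Over all genes in 4 groups of rising GC content, its median was -0.96, -0.31, 0.32 and 0.73 log2 units. The lowest group held 3248 genes and the highest 3247. Among the receptors, ALCAM (39.6% GC) shifted by -1.19, and ICAM1 (56.0%), MCAM (55.1%) and BCAM (64.1%) by 0.70, 0.59 and 0.77. F11R (47.7% GC), CD9 (50.01%) and CD44 (44.3%) shifted by 0.57, 0.39 and 0.36. CD44 lay in the group with a median of -0.31 and thus shifted the other way. VCAM1, with the lowest GC content of the 8 (35.0%), shifted by 0.10 (edgeR adjusted p = 0.724), and LM2 was above Par and Par above BrM2 in 3 of 3 replicate numbers. The part of base composition in the differences between lines was not tested.

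Levels of different genes can be compared only per length. Per kilobase of the longest transcript, CD44 led in every line (113 CPM per kilobase in Par, 132 in LM2 and 139 in BrM2), followed by ALCAM (58.0, 55.5 and 59.9), CD9 (50.8, 47.0 and 53.1) and MCAM (26.4, 40.4 and 34.5). ALCAM and CD9 overlapped in each line, and so did CD9 and MCAM in LM2 and BrM2. Then came ICAM1 (10.1, 6.32 and 6.96) and BCAM (7.98, 3.43 and 5.80), which overlapped in each line, F11R (1.84, 3.02 and 2.92) and VCAM1 (0.871, 2.28 and 0.0169). VCAM1 was thus last in all 3 lines by its mean. In LM2, though, the ranges of BCAM, F11R and VCAM1 overlapped with each other, and that of ICAM1 overlapped with that of F11R. With the median transcript length in place of the longest, MCAM moved to the second place in every line, and F11R above BCAM in LM2.

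**Figure D3:**
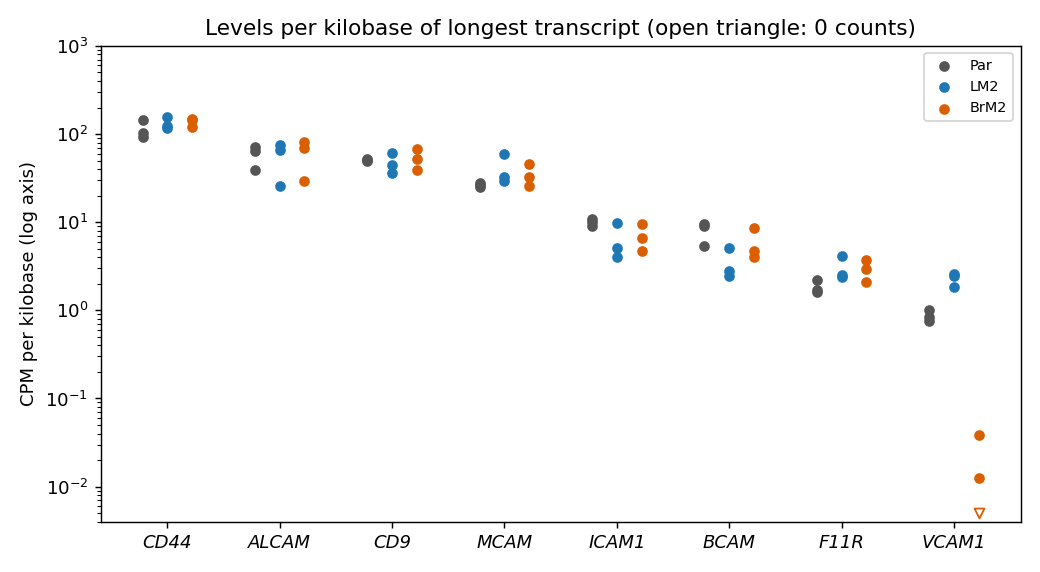
Levels of the 8 receptors in CPM per kilobase of the longest transcript (logarithmic vertical axis), 1 point per library, colored by line, in the order of the Par means, with the library of 0 counts drawn as an open triangle at the foot of the axis. CD44 is highest at 113 to 139 on average, and VCAM1 spans the widest range, from no count in a BrM2 library to a mean of 2.28 in LM2.

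Receptors work with partners, and 87 further genes in 8 lists were followed: relatives in the immunoglobulin superfamily, counter-receptors and ligands, hyaluronan metabolism, cytoplasmic partners, shedding proteases, the tetraspanin web, selectins with their ligands, and NF-kappa-B target genes. Of these, 61 were tested and 26 fell under the count filter. In LM2 against Par 12 of the 61 passed (6 higher and 6 lower), in BrM2 against Par 17 (13 higher and 4 lower), and in BrM2 against LM2 10 (6 higher and 4 lower), where 8.69%, 13.3% and 8.1% of all genes were called. With the block 35, 39 and 32 passed, with 34.5%, 42.7% and 37.5% of all genes called. The calls held in every fit that left out 1 library for 7 of 12, 6 of 17 and 7 of 10 genes, and each call without the block also passed with it. Up to 2 genes with the largest change among those called are named per list and comparison, and other called genes are marked as chosen after their values were seen. Genes named for low counts or for not passing without the block, with any values from the block, were chosen outside this rule.

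Among the 14 counter-receptors and ligands, the alpha chain genes of the integrins that bind VCAM1 or ICAM1, and ITGB7, had few counts, with at most 3 per library for ITGA4, 8 for ITGA9, 2 for ITGB7, 1 for ITGAL, 7 for ITGAM and 1 for ITGAX. The beta chain genes ITGB1 and ITGB2 were expressed. MUC1, a mucin that binds ICAM1, fell from 19.7 ± 3.57 CPM in Par to 2.45 ± 1.03 in LM2 (log2 fold change -3.01, edgeR adjusted p = 0.00213) and 0.418 ± 0.237 in BrM2 (-5.60, adjusted p = 0.000202). ITGB2, the beta chain of the leukocyte integrins, rose to 40.5 ± 16.7 CPM in BrM2 from 7.63 ± 0.979 in Par (2.41, adjusted p = 0.00670) and against LM2 (2.47, adjusted p = 0.00881), while its alpha partners ITGAL, ITGAM and ITGAX stayed at the low counts above. It overlaps the expressed antisense gene ITGB2-AS1. MUC1 was also lower in BrM2 than in LM2 (-2.59, adjusted p = 0.00948; 0.0508 without the second BrM2 replicate).

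LAMA4, the laminin chain bound by MCAM, had the largest rise of the list in LM2, to 48.5 ± 14.98 CPM from 3.48 ± 0.616 in Par (3.80, edgeR adjusted p = 0.000292). In BrM2 it reached 8.77 ± 1.97 CPM, which was lower than in LM2 (-2.46, adjusted p = 0.00158) and higher than in Par (1.33, adjusted p = 0.0207, above the threshold in 5 of the 9 fits that left out 1 library, at up to 0.0833). These last 2 values were chosen after they were seen. ITGB1 (1160 ± 348 CPM in Par) and LAMA5, the laminin chain bound by BCAM, did not pass in any comparison without the block, with LAMA5 at -0.46 in LM2 and -0.41 in BrM2 and ITGB1 at -0.07 and -0.30. With the block ITGB1 was lower in BrM2 than in Par (-0.36, adjusted p = 0.0355).

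The hyaluronan list, the surroundings of the CD44 ligand, held 4 called genes of 7 tested in LM2, 2 in BrM2 against Par and 2 in BrM2 against LM2 (8.69%, 13.3% and 8.1% of all genes). CEMIP, which takes part in hyaluronan breakdown, fell from 279 ± 48.8 CPM in Par to 18.0 ± 3.25 in LM2 (-3.96, edgeR adjusted p = 6.06e-05) and 94.7 ± 6.80 in BrM2 (-1.56, adjusted p = 0.00132), and BrM2 was above LM2 (2.4, adjusted p = 0.000299). HAS2, a hyaluronan synthase, rose in LM2 (2.19, adjusted p = 0.0328) and in BrM2 (2.06, adjusted p = 0.0305), but each call was lost in 5 of 9 fits that left out 1 library (adjusted p up to 0.129 and 0.111). HAS3, another synthase, was lower in BrM2 than in LM2 (-1.11, adjusted p = 0.0306; up to 0.143 with 1 library left out). CEMIP and HAS2 overlap expressed genes on the opposite strand (MESD and HAS2-AS1), and HAS3 overlaps CHTF8.

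In the tetraspanin web around CD9, PTGFRN, a direct partner of CD9, fell in LM2 to 1.03 ± 0.0724 CPM from 3.29 ± 0.413 in Par (-1.66, edgeR adjusted p = 0.00242) and was higher in BrM2 than in LM2 (2.48, adjusted p = 0.000373). Its rise in BrM2 against Par (0.81, adjusted p = 0.0376) was lost in 8 of 9 fits with 1 library left out, at up to 0.157. TSPAN15, which escorts the protease ADAM10, fell in LM2 (-1.66, adjusted p = 0.0145; up to 0.0767) and was higher in BrM2 than in LM2 (1.96, adjusted p = 0.00739). CD81, CD151, CD63 and CD82, the well known relatives of CD9, did not pass in any of the 3 comparisons without the block. With it, CD151 was lower than in Par in LM2 (-0.63, adjusted p = 0.0176) and BrM2 (-0.69, adjusted p = 0.00918), and CD63 and CD82 were lower in BrM2 than in Par (-0.73 and -1.12, adjusted p = 0.000944 and 0.00119) and than in LM2 (-0.41 and -0.65, adjusted p = 0.0250 and 0.0252). TSPAN14, a relative that also partners ADAM10, rose against Par in BrM2 (0.93, adjusted p = 0.0210; up to 0.0913 with 1 library left out) and, chosen after its value was seen, in LM2 (1.05, adjusted p = 0.0167; up to 0.0831).

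Of the selectin ligands, SELPLG fell in LM2 (1.77 ± 0.871 against 10.3 ± 1.49 CPM in Par, -2.54, edgeR adjusted p = 0.00462) and in BrM2 (-2.02, adjusted p = 0.00941; 0.0534 at most with 1 library left out). CD24, a mucin-like ligand of P-selectin, rose in LM2 (8.003 ± 1.99 against 2.07 ± 0.391 CPM, 1.94, adjusted p = 0.00249) and BrM2 (13.7 ± 1.63 CPM, 2.72, adjusted p = 0.000350). PODXL, an anti-adhesive sialomucin, was lower in BrM2 than in LM2 (-1.18, adjusted p = 0.00159) and, chosen after its value was seen, than in Par (-1.16, adjusted p = 0.00119). The 3 selectin genes were not tested, SELE having 0 counts in every library.

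Of the 15 tested immunoglobulin relatives, edgeR called 0 in LM2 against Par (3 at an unadjusted p under 0.05, 2 in DESeq2, 7 with the block), 3 in BrM2 against Par, all higher (10 with the block), and 0 in BrM2 against LM2 (3 unadjusted, 1 in DESeq2, 7 with the block). Of all tested genes 8.69%, 13.3% and 8.1% were called in these comparisons, and 34.5%, 42.7% and 37.5% with the block. EMB (embigin), a basigin relative, had 20.1 ± 12.1 CPM in BrM2 and 3.50 ± 1.63 in Par (2.51, adjusted p = 0.0390), and ICAM2 had 5.24 ± 1.54 and 1.53 ± 0.634 (1.77, adjusted p = 0.0209). ICAM5, named after its value was seen, had 1.69 (adjusted p = 0.0266). These calls were lost in 7, 4 and 4 of the 9 fits with 1 library left out (adjusted p up to 0.143, 0.0935 and 0.102). EMB shares 20.0% of its 50-base stretches with the pseudogene EMBP1, and ICAM2 overlaps PRR29 on the opposite strand.

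Cytoplasmic partners passed in BrM2 against Par for 2 of 7 (NF2, merlin, 0.88, edgeR adjusted p = 0.0258, and the polarity protein PARD3, 0.56, adjusted p = 0.0378), and these calls were lost in 5 and 7 of 9 fits with 1 library left out. In BrM2 against Par 13.3% of all genes were called. In LM2 against Par and BrM2 against LM2, edgeR called 0 of the partners (3 and 1 at an unadjusted p under 0.05, 3 and 0 in DESeq2), and 4 and 3 passed with the block. Of all genes 8.69% and 8.1% were called there, and 34.5% and 37.5% with the block. EZR, RDX and MSN, which tie CD44 and the ICAMs to actin, did not pass in any comparison without the block. With it, RDX was lower in BrM2 than in Par (-0.80, adjusted p = 0.000323) and LM2 (-0.80, adjusted p = 0.000452), and EZR was lower in LM2 than in Par (-0.45, adjusted p = 0.0172) and than in BrM2, which was higher by 0.39 (adjusted p = 0.0308). Of the shedding proteases ADAM10, ADAM17 and MMP14, edgeR called 0 in any comparison (0, 0 and 1 at an unadjusted p under 0.05, 0 in DESeq2), and with the block all 3 passed in both metastatic lines against Par, where 34.5% and 42.7% of all genes were called. In that model ADAM10 was lower in LM2 (-0.97, adjusted p = 0.000279) and in BrM2 (-1.16, adjusted p = 6.25e-05), and so was MMP14 (-0.55 and -0.65, adjusted p = 0.00612 and 0.00173), whereas ADAM17 was lower in LM2 (-0.39, adjusted p = 0.0233) and higher in BrM2 (0.65, adjusted p = 0.00111).

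Among the NF-kappa-B target genes, CCL2, a monocyte chemoattractant, had 2.003 ± 0.523 CPM in Par, 0.129 ± 0.0179 in LM2, where each library held 3 counts, and 50.1 ± 7.55 in BrM2. Against Par it fell in LM2 and rose in BrM2 (edgeR adjusted p = 0.000218 and 3.51e-05), the reverse of VCAM1, and a relation to VCAM1 was not tested. The summed level of CCL2 was 15.6 times as high in Par as in LM2 (95% interval of counting error 7.95 to 34.8). In BrM2 it was 403 times as high as in LM2 (212 to 883). CXCL1 rose in BrM2 against Par (1.57, adjusted p = 0.0171; up to 0.0606 with 1 library left out) and NFKB2 in BrM2 against LM2 (1.29, adjusted p = 0.0452; up to 0.176). Of the 10 tested genes, 1 passed in LM2 against Par, 2 in BrM2 against Par and 2 in BrM2 against LM2 (8.69%, 13.3% and 8.1% of all genes), and 7, 6 and 7 with the block (34.5%, 42.7% and 37.5%). In LM2 against Par, 2 of those passing with the block were higher and 5 lower. The higher ones were CXCL1 (1.15, adjusted p = 0.0136) and TNFAIP3 (0.60, adjusted p = 0.0324), named after their values were seen. With the block, 4 were higher and 2 lower in BrM2 against Par, and 6 higher and 1 lower in BrM2 against LM2. The median log2 fold changes of the 10 were -0.65, 0.47 and 0.65, against 0.01, -0.02 and -0.03 over all genes.

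**Figure D4:**
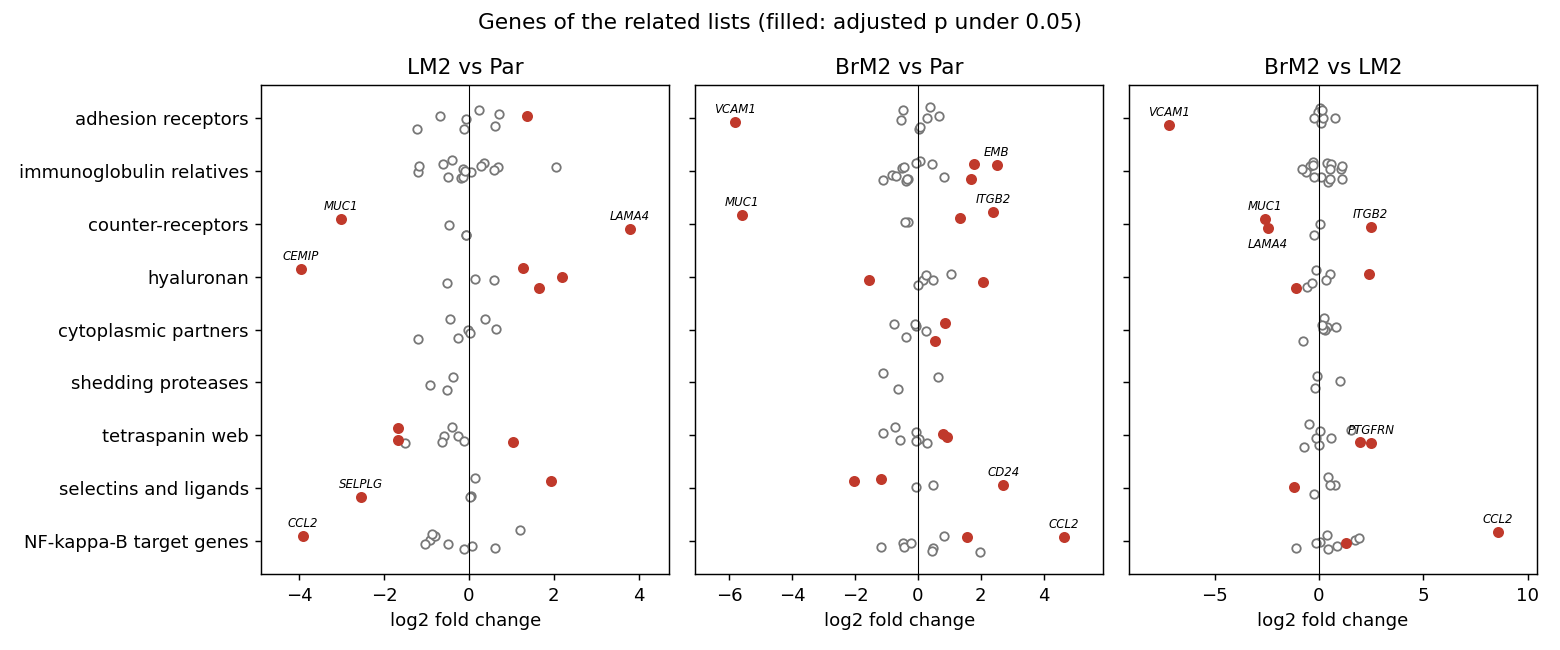
Log2 fold changes of the 8 receptors and of the tested genes of the 8 related lists (1 point per gene, spread vertically at random within a list, horizontal axes differ between panels), with genes at an adjusted p under 0.05 filled and those changed by more than 2.4 named. VCAM1 and CCL2 mark the ends of the panel of BrM2 against LM2, with fitted values of -7.20 and 8.55 that rest on few counts in BrM2 and LM2.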

How the data were processed

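RNA of 3 replicates each of Par, LM2 and BrM2 was measured. The authors made stranded mRNA libraries (the counted strand is not given in the sources used here), aligned paired-end reads to hg38 with STAR 2.7.0 and deposited raw counts per gene. A deposited table of the authors' DESeq2 comparisons (log2 fold changes and adjusted p-values of LM2 and BrM2 against Par) was not used. Of 58887 rows, 3 that repeated an identifier with the same counts were dropped, which left 58884. A filter written after HTSFilter kept 13055 genes whose largest normalized count exceeded 47.15. They were tested with edgeR 4.0.16 (TMM, 2-sided quasi-likelihood test, all 9 libraries, Benjamini-Hochberg adjustment, threshold 0.05), in R 4.3.3.

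Same-numbered libraries of different lines deviated together from the line means (correlations across genes 0.23 to 0.90 in 9 of 9 pairs). Deviations within a line cancel out, so the shared shift of replicate 1 alone makes numbers 2 and 3 deviate alike. These correlations therefore cannot settle whether numbers 2 and 3 were matched between lines. With this pairing, taken from the values, the replicate number was also fitted as a block. The common dispersion was 0.110 without and 0.0207 with it. Alternatives were DESeq2 1.42.0, RLE factors, other count filters and leaving out libraries. Intervals of counting error are exact conditional binomial ones and cover counting error only. The tests were also run on simulated data, with an outcome that is not given here. Transcript lengths, GC content and shared 50-base stretches came from GENCODE release 44 transcripts and not, as planned, from RefSeq. Gene positions and windows before start sites are from RefSeq tables (GRCh38.p14). The receptors and the lists were chosen with earlier results of these data known. Named by rule were all 8 receptors, the 2 genes with the largest change among those called per list and comparison, and the 3 genes most like VCAM1 and ICAM1 in profile.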

Additional observations from a re-analysis of the deposited data

How the results depend on the processing

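VCAM1 passed the threshold in BrM2 against Par and against LM2 in all 20 alternatives, and in LM2 against Par in 11 of 20, with the same direction throughout. ALCAM and CD9 passed in no alternative. ICAM1, MCAM, CD44, BCAM and F11R passed in some, most of them fits with the replicate block; without it, BCAM passed in DESeq2 and without LM2 replicate 1, and ICAM1, BCAM, CD44 and F11R without replicate 1 of all lines. With the block on the replicate number, 5, 3 and 2 receptors passed in LM2 against Par, BrM2 against Par and BrM2 against LM2, against 1 in each without it, 35, 39 and 32 genes of the related lists against 12, 17 and 10, and 4510, 5577 and 4896 of all genes against 1134, 1733 and 1057. DESeq2 called 2 receptors, 19 list genes and 1893 genes in LM2 against Par, and 1824 genes in BrM2 against LM2. When libraries were left out without the block, the receptors called ranged from 0 to 3 in LM2 against Par, 1 to 4 in BrM2 against Par and 1 to 1 in BrM2 against LM2, the list genes from 3 to 36, 2 to 39 and 1 to 28, and all genes from 70 to 4327, 159 to 5274 and 53 to 4257. The lowest counts of all genes came from the fits without replicate 2 of all lines and the highest from those without replicate 1 of all lines. With the block, and replicates 1, 2 and 3 left out in turn, the receptors called were 3, 5 and 4 in LM2 against Par, 3, 3 and 1 in BrM2 against Par and 1, 2 and 1 in BrM2 against LM2, the list genes 33, 34 and 23, then 34, 42 and 27, then 26, 35 and 21, and all genes 3651, 4212 and 2149, then 4808, 5846 and 3017, then 3725, 5374 and 2066. MCAM in BrM2 against LM2 ranged from -0.48 to 0.16 with libraries left out, and changed sign without LM2 replicate 1 (0.16 against -0.23), with no call in either. Other small differences changed sign more often. ALCAM kept its sign in 15 of 20 alternatives in LM2 against Par and 13 of 20 in BrM2 against Par, and F11R in 14 of 20 in BrM2 against LM2. RLE factors shifted the median of all genes by less than 0.1 log2 units, and other count filters changed no count of receptors. The median in place of the longest transcript length changed the levels per kilobase and the order of receptors. CD44 passed in BrM2 against Par in 2 of 20 alternatives, both without replicate 1 of all lines. With 3 replicates per line, small differences of CD9 and ALCAM remained below the resolution of the design.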
